A study of Mus musculus with 12 samples.

Results

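The proliferation and cell cycle module is a set of 45 mouse genes whose products copy DNA or divide the cell, chosen by symbol. All 45 were found, each on a single row, among the 30239 genes of the deposited table, and each had at least the mean of 10 counts per library that was required for testing. Of the 45, 20 act in S phase or at its entry and 25 act in mitosis, and these classes are described separately. Sequenced libraries held poly(A) RNA of the tibialis anterior (the fast muscle along the shin) from naive mice aged 6 months. The tested animals were mdx mice, which carry a nonsense mutation in the dystrophin gene Dmd and are the standard model of Duchenne muscular dystrophy, and DMD-Null mice, named for the loss of that gene. WT mice with an intact gene were the controls, and each genotype had 4 libraries. The labels do not say how the DMD-Null allele was made, nor the sex or strain background of the animals, nor how the samples of a genotype relate to individual mice, so p-values measure only the spread between these samples.

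A dividing cell passes from G1 through DNA replication in S phase and then, after a gap, into mitosis. Cyclin D and cyclin E kinases release E2F transcription factors from the retinoblastoma family, and E2F then drives the genes that load the replicative helicase and supply deoxynucleotides. Mitotic genes are switched on later by B-MYB and FOXM1 acting with the MuvB core, and the same core forms the DREAM repressor in resting cells. In adult muscle the fibre nuclei do not divide, and the dividing cells are found among satellite cells, macrophages, fibro-adipogenic progenitors and vessel cells. In a bulk sample, fewer cycling cells and less cell cycle RNA per cell cannot be told apart.

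Total counts were 60693078 to 68054627 per library. Dmd itself had 713 to 1254 counts in mdx, 71 to 164 in DMD-Null, and 542, 3597, 412 and 2446 counts in WT 1 to 4. The libraries labelled WT 1 and WT 3 thus had fewer raw Dmd counts than any mdx library, which goes against what a WT label leads one to look for. Scaling by the normalization factors below would raise WT 1 and WT 3 relative to mdx, so this order holds for raw counts only. They also stood apart in other measures. Their log2 levels relative to the mean library correlated with gene GC content (Spearman rho across genes 0.53 and 0.506, against -0.434 to 0.318 in the other 10 libraries), and their normalization factors were 0.718 and 0.697, against 0.937 to 1.19. The 10 muscle fibre markers summed to 116000 to 154000 CPM (counts scaled to library size) in mdx, 119000 to 180000 in DMD-Null and 130000 to 406000 in WT, where WT 1 and WT 3 were highest. The comparisons with WT take the labels as they stand, and the counts of members and of related cell cycle genes called against WT are also given without these 2 libraries.

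Many promoters of the module, though not all, carried sequence words by which S phase and mitosis genes are known. RefSeq promoter windows of 300 bases on GRCm38.p6, from 250 bases before to 50 after a transcript start, were matched by symbol to 37 of the 45 members. For Cdc6, Chek1, E2f1 and Mcm7 the start used lay 350 to 539 bases from the gene start in the deposited table. Both strands were searched for the E2F words TTTGGCGC, TTTCCCGC, TTTGCCGC and TTTCGCGC, for the cell cycle genes homology region (CHR), to which MuvB binds, as TTTGAA or TTCGAA, and for CCAAT, the box of NF-Y. An E2F word was present in 8 of 17 S phase promoters (47.1%), in 1 of 20 mitosis promoters (5.0%) and in 3.61% of the 12234 promoters of all genes tested. The CHR words were present in 3 of 17 S phase promoters (17.6%), in 15 of 20 mitosis promoters (75.0%) and in 13.8% of all. CCAAT was present in 11 of 17 S phase promoters (64.7%), in 18 of 20 mitosis promoters (90.0%) and in 37.9% of all, and the CHR words and CCAAT stood together in 75.0% of mitosis promoters and in 5.74% of all. These are matches to letters and not sites shown to be bound.

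**Figure D1:**
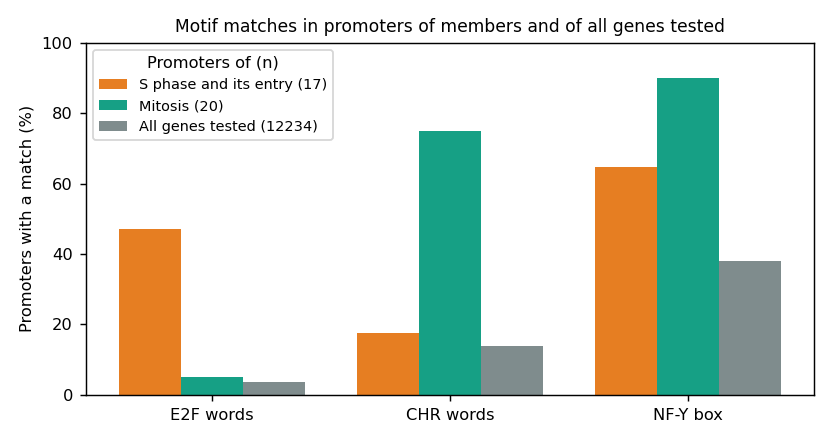
Percent of promoters (y axis) with at least 1 match to the E2F words, the CHR words or the CCAAT box of NF-Y (x axis), for 17 S phase members, 20 mitosis members and 12234 genes tested. The S phase bar is tallest for E2F (47.1%) and the mitosis bar is tallest for CHR (75.0%) and for the NF-Y box (90.0%).

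To show both arrangements, the 200 bases from 170 before to 30 after the start are printed for 3 helicase genes, for E2f8, the most strongly changed member, and for 5 mitosis genes, with capitals on every match to a searched word on either strand. Mcm6 (chr1:128359676-128359875, minus strand) holds 3 E2F matches, Mcm5 (chr8:75109339-75109538, plus strand) holds 2, and Mcm3 (chr1:20820283-20820482, minus strand) holds 1. In Mcm5 both E2F matches overlap each other, as do a pair of those in Mcm6. E2f8 (chr7:48881567-48881766, minus strand) holds 1 CHR and 1 CCAAT match and no E2F word. Among the mitosis genes, Cdk1 (chr10:69352883-69353082, minus strand) holds all 3 kinds. Ccnb2 (chr9:70421525-70421724, minus strand), Bub1 (chr2:127831830-127832029, minus strand), Mki67 (chr7:135716350-135716549, minus strand) and Top2a (chr11:99024160-99024359, minus strand) hold CHR and CCAAT matches.
Mcm6: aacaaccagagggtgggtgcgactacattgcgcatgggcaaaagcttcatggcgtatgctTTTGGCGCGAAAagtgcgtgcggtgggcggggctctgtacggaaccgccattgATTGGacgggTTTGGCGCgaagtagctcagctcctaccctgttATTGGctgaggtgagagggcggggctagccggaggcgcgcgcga
Mcm5: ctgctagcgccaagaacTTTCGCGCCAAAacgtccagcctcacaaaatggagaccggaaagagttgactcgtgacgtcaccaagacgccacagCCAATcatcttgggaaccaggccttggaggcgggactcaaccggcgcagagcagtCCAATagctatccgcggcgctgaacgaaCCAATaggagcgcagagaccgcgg
Mcm3: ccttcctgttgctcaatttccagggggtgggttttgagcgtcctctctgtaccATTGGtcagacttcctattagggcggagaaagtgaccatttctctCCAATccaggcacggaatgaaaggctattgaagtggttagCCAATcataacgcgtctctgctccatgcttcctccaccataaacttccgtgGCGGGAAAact
E2f8: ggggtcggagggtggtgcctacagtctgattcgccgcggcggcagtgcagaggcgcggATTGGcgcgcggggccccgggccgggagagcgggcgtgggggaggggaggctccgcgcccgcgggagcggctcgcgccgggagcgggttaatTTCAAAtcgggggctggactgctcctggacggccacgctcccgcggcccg
Cdk1: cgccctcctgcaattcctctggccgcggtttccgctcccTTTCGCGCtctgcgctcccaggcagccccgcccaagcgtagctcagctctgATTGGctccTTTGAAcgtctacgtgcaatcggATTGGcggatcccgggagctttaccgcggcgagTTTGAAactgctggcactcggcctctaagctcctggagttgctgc
Ccnb2: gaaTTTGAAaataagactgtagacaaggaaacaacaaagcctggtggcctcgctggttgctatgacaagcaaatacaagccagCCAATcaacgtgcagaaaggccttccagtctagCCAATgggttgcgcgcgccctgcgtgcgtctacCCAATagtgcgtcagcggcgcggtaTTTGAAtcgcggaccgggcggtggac
Bub1: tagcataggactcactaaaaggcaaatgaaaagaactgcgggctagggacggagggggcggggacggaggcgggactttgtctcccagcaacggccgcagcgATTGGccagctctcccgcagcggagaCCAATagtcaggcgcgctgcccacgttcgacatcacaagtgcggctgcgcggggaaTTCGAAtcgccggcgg
Mki67: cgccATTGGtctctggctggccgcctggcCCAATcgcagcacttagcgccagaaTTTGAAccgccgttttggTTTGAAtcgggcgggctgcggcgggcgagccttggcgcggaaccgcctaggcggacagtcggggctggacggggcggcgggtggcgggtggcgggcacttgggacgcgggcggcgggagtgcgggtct
Top2a: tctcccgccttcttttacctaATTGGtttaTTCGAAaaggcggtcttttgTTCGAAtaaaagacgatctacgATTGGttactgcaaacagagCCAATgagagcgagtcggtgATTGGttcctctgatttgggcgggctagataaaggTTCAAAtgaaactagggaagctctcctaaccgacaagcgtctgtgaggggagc

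Most of the module was higher in both mutants than in WT. In mdx, 34 of the 45 members rose and none fell (edgeR quasi-likelihood test, Benjamini-Hochberg adjusted p below 0.05 over 18193 genes), whereas 28.1% of all genes tested were called, 13.3% higher and 14.8% lower. The rises comprised 15 of 20 S phase members and 19 of 25 mitosis members, with a median log2 fold change of 1.04 for S phase, 1.75 for mitosis and 0 for all genes tested. In DMD-Null, 32 of 45 rose and none fell, whereas 22.9% of all genes tested were called, 11.5% higher and 11.4% lower. Here 13 of 20 S phase members and 19 of 25 mitosis members rose, and the medians were 1.11, 1.75 and 0.01. In mdx, 36 members were higher in all 4 libraries than in any WT library, and in DMD-Null 29 were, whereas this held for 15.2% and 11.4% of all genes tested. No member was lower without overlap in either mutant, against 12.7% and 9.26% of all genes. Both comparisons share the WT libraries.

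Without the libraries labelled WT 1 and WT 3, 26 members rose in mdx and 1 fell, and 28 rose in DMD-Null and 1 fell. Of all genes 18.2% were then called in mdx (10.4% higher, 7.78% lower) and 16.9% in DMD-Null (10% higher, 6.93% lower). By class, 11 S phase and 15 mitosis members were then higher in mdx, and 11 and 17 in DMD-Null. The rises no longer called in mdx were those of Mcm6, Pcna, Ccne1, Chek1, Bub1, Cenpe, Kif11 and Kif23, and in DMD-Null those of Mcm6, Tyms, Chek1, Kif20a and Kif23, while Mcm7 was called there in addition (0.61, adjusted p = 0.0415). With a correction for GC content 31 members were called higher in each mutant, of which 31 in mdx and 29 in DMD-Null were also called without it, and Rrm1 was called lower in both and Ube2c in DMD-Null. Of all genes 33.7% were then called in mdx (14% higher, 19.6% lower) and 29.3% in DMD-Null (13.2% higher, 16.1% lower).

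Some calls also ended when 1 library was left out, which leaves fewer libraries to the fit. In mdx, leaving out 1 library ended the call of Cdt1 (any mdx library, WT 2 or WT 4, adjusted p = 0.05 to 0.0745), Mcm6 (mdx 1, 3 or 4, WT 1 or WT 3, adjusted p = 0.0549 to 0.0646) and Ccne1 (mdx 1, 3 or 4, WT 3 or WT 4, adjusted p = 0.0746 to 0.106). The same was true of Ccnd1 (mdx 1, 3 or 4, adjusted p = 0.0525 to 0.0588), Bub1 (mdx 4 or WT 1, adjusted p = 0.054 to 0.0578) and Prc1 (mdx 1, adjusted p = 0.0501). Pcna and Cenpe lost the call in mdx without any of the 8 mutant libraries or without WT 1, and Pcna also without WT 3 (adjusted p = 0.0578 to 0.129 for Pcna and 0.0519 to 0.0958 for Cenpe). In DMD-Null the calls that ended were those of Mcm6 and Plk1 (without DMD-Null 2, adjusted p = 0.0567 and 0.0573), Cdt1 (DMD-Null 2, 3 or 4 or WT 4, adjusted p = 0.0542 to 0.0824) and Ccnd1 (DMD-Null 2 or 3 or WT 3, adjusted p = 0.0533 to 0.0692). So did those of Chek1 (DMD-Null 1, 2 or 3, WT 1 or WT 3, adjusted p = 0.058 to 0.0857), Kif20a (mdx 1 or 4, DMD-Null 2, 3 or 4, WT 1 or WT 4, adjusted p = 0.0535 to 0.105) and Prc1 (DMD-Null 2, 3 or 4, WT 3 or WT 4, adjusted p = 0.0525 to 0.106).

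**Figure D2:**
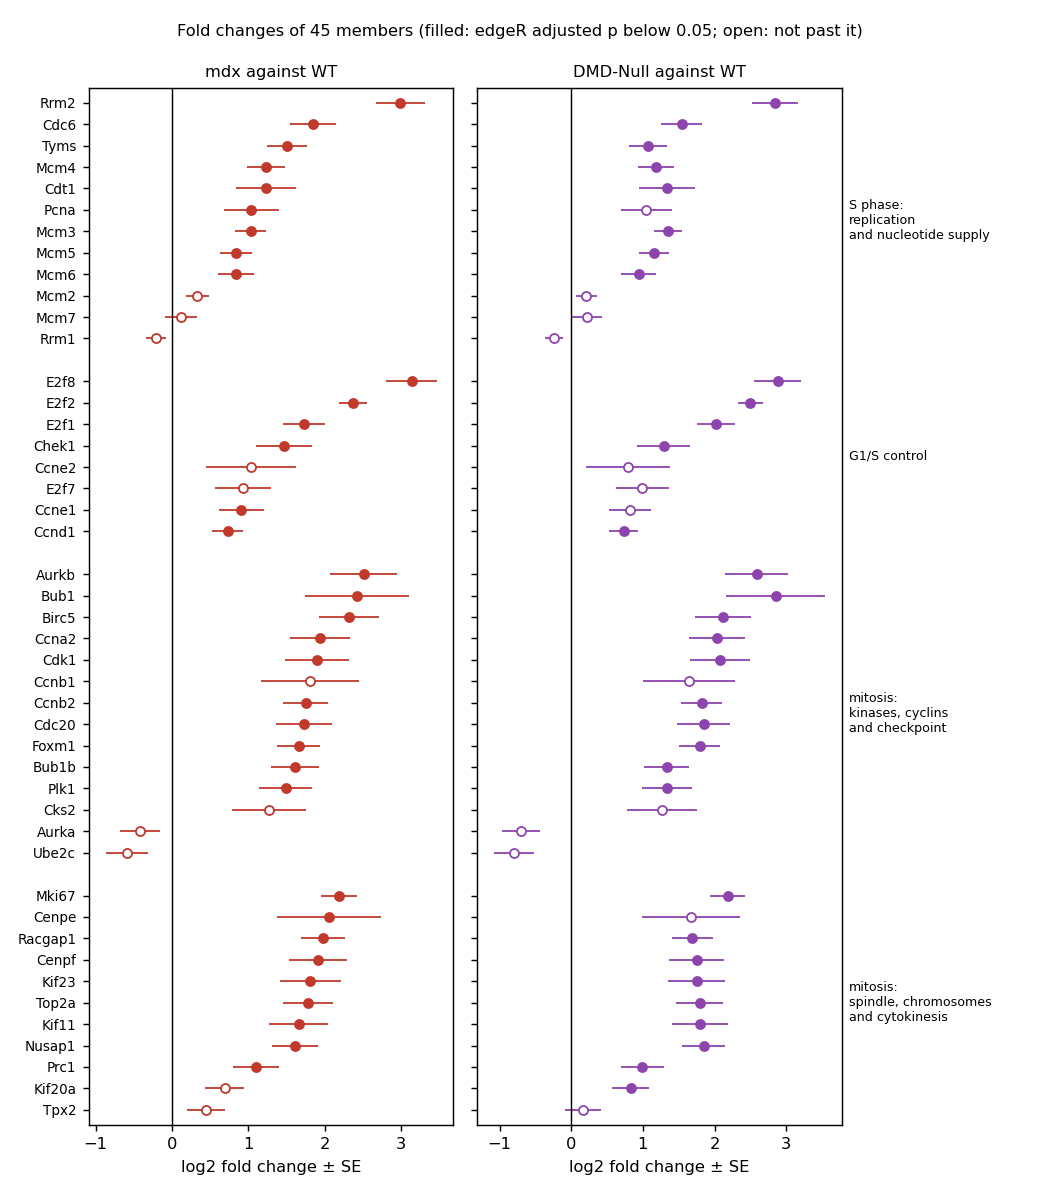
Log2 fold change (x axis) of each of the 45 members (y axis, grouped by role) in mdx against WT (left) and DMD-Null against WT (right), with bars of 1 SE. Filled points passed the edgeR test. Nearly all points lie to the right of 0, up to 3.14 for E2f8 in mdx, and Rrm1, Aurka and Ube2c lie to the left of it and are open.

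In S phase, 9 of the 12 replication and nucleotide supply genes rose in mdx and 8 in DMD-Null. Rrm2, a small subunit of ribonucleotide reductase, rose most (ENSMUSG00000020649, chromosome 12 from 24708241 to 24714146, member positions being as deposited, read as GRCm38). It stood at 7.09, 7.36, 7.89 and 8.89 CPM in mdx 1 to 4, at 4.99, 8.65, 9.0 and 5.51 CPM in DMD-Null, and at 0.464, 1.45, 1.09 and 0.902 CPM in WT. All 8 mutant libraries exceeded all WT libraries, and the log2 fold change was 2.99 ± 0.32 (SE) in mdx (adjusted p = 8.41e-05) and 2.84 ± 0.32 in DMD-Null (adjusted p = 0.000123). Rrm1, its large subunit and the member with the most counts, did not follow. It was at 34.1, 33.2, 31.4 and 32 CPM in mdx, at 32.4, 33.5, 30.7 and 31.7 CPM in DMD-Null, and at 30.9, 37, 40.5 and 42.9 CPM in WT. All mutant libraries lay below WT 2, WT 3 and WT 4 and close to WT 1, with a log2 fold change of -0.21 ± 0.13 (adjusted p = 0.209) in mdx and -0.24 ± 0.13 (adjusted p = 0.178) in DMD-Null. Without WT 1 and WT 3, Rrm1 was the member that fell in both mutants, by 0.32 in mdx (adjusted p = 0.0497) and by 0.35 in DMD-Null (adjusted p = 0.0388), and with library totals alone in place of TMM factors its value turned to 0.19 and 0.17.

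Cdc6, which loads the helicase onto origins, was at 1.16, 1.54, 1.09 and 1.2 CPM in mdx, at 0.660, 1.21, 1.09 and 1.04 CPM in DMD-Null, and at 0.353, 0.393, 0.416 and 0.221 CPM in WT (ENSMUSG00000017499, chromosome 11 from 98907801 to 98923940). No mutant library fell into the WT range, and Cdc6 rose by 1.85 ± 0.30 in mdx (adjusted p = 0.00107) and by 1.54 ± 0.29 in DMD-Null (adjusted p = 0.0036). Cdt1, its partner in loading, rose by 1.23 ± 0.39 and 1.34 ± 0.39, and DMD-Null 1 at 1.34 CPM lay within the WT range of 0.681 to 1.85 CPM, where WT 1 and WT 3 were highest and without which the values were 1.95 and 2.06. The helicase subunits split into risers and members that did not pass. Mcm3, Mcm4, Mcm5 and Mcm6 rose in both mutants, by 0.84 to 1.23 in mdx and by 0.94 to 1.35 in DMD-Null, whereas Mcm2 had a value of 0.33 in mdx and 0.21 in DMD-Null and Mcm7 of 0.12 and 0.22, none of them called. Mcm7 shares ground with Cops6 and Ap4m1 on the other strand, and no source used here says if reads were counted by strand.

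Pcna, the sliding clamp of the replicative polymerases, had the highest level per length of the module, with a mean of 8.4 FPKM (a level per gene length and library size) over the 12 libraries. Its CPM were 23.6, 22.6, 30 and 24.8 in mdx, 25, 32.3, 24.9 and 19.1 in DMD-Null, and 7.06, 20.3, 4.95 and 16.5 in WT (ENSMUSG00000027342, chromosome 2 from 132249162 to 132253314). WT 2 lay within the DMD-Null range and below every mdx library, WT 4 lay below all mutant libraries, and WT 1 and WT 3 lay far below. Pcna was called in mdx (1.04 ± 0.36, adjusted p = 0.049) and not in DMD-Null (1.05 ± 0.36, adjusted p = 0.0547), and without WT 1 and WT 3 both values were 0.43 with adjusted p of 0.158 and 0.159. Tyms, which makes thymidylate, rose by 1.51 ± 0.26 in mdx and by 1.07 ± 0.26 in DMD-Null.

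Of the 8 genes that control entry into S phase, 6 rose in mdx and 5 in DMD-Null, led by E2F factors. E2f8, an atypical E2F that represses E2F targets, was at 1.65, 1.81, 2.46 and 3.45 CPM in mdx, at 1.34, 2.50, 2.46 and 1.5 CPM in DMD-Null, and at 0.265, 0.222, 0.278 and 0.289 CPM in WT (ENSMUSG00000046179, chromosome 7 from 48866429 to 48881596). Every mutant library was above every WT library, and WT varied little. The log2 fold change was 3.14 ± 0.33 in mdx (adjusted p = 8.25e-05) and 2.88 ± 0.33 in DMD-Null (adjusted p = 0.000147), the largest of the module in each. E2f2, an activator of S phase genes, was far more abundant, at 15.2, 14.8, 13.9 and 12.6 CPM in mdx, 18, 16.5, 12.2 and 15 CPM in DMD-Null, and 2.03, 2.78, 2.94 and 3.18 CPM in WT (ENSMUSG00000018983, chromosome 4 from 136172394 to 136196057). The groups were wide apart, with values of 2.37 ± 0.18 in mdx (adjusted p = 1.31e-05) and 2.50 ± 0.18 in DMD-Null (adjusted p = 1.02e-05). E2f1, the other activator, rose by 1.73 ± 0.27 and 2.02 ± 0.27, and E2f7, the atypical relative of E2f8, had values of 0.93 ± 0.37 and 0.99 ± 0.37 that were not called (adjusted p = 0.0746 and 0.0699).

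Ccnd1, which encodes cyclin D and starts the passage out of G1, was at 20.8, 14.5, 20.9 and 21.8 CPM in mdx, at 18, 21.9, 21.1 and 16.9 CPM in DMD-Null, and at 15.4, 12.1, 11.3 and 8.25 CPM in WT (ENSMUSG00000070348, chromosome 7 from 144929931 to 144939925). Its shift was small and equal in both, 0.73 ± 0.20 (adjusted p = 0.0197 in mdx and 0.0226 in DMD-Null), and mdx 2 lay below WT 1. The cyclin E genes were less uniform. Ccne1 rose in mdx (0.91 ± 0.29, adjusted p = 0.0373) and was not called in DMD-Null (0.82 ± 0.29, adjusted p = 0.0628). Ccne2 was at 3.69 to 5.13 CPM in mdx, at 2.82 to 3.95 in DMD-Null, and at 0.596, 4.49, 0.278 and 2.96 CPM in WT, so WT 2 and WT 4 lay within or near the mutant range while WT 1 and WT 3 lay far under it. It was called in neither mutant, and without WT 1 and WT 3 its values were 0.18 in mdx and -0.07 in DMD-Null. The span of Ccne2 overlaps by 5622 bases that of Ints8 on the opposite strand, which averaged 790.9 counts against 228 for Ccne2. In the same edgeR fit Ints8 had values of 0.95 in mdx (adjusted p = 0.0574) and 1.03 in DMD-Null (adjusted p = 0.0486). Reads of both genes cannot be told apart here, as the strand setting of the counting is not given. Chek1, the checkpoint kinase of stalled replication, rose by 1.47 ± 0.37 in mdx and 1.29 ± 0.37 in DMD-Null and was not called in either without WT 1 and WT 3, or with the GC correction.

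**Figure D3:**
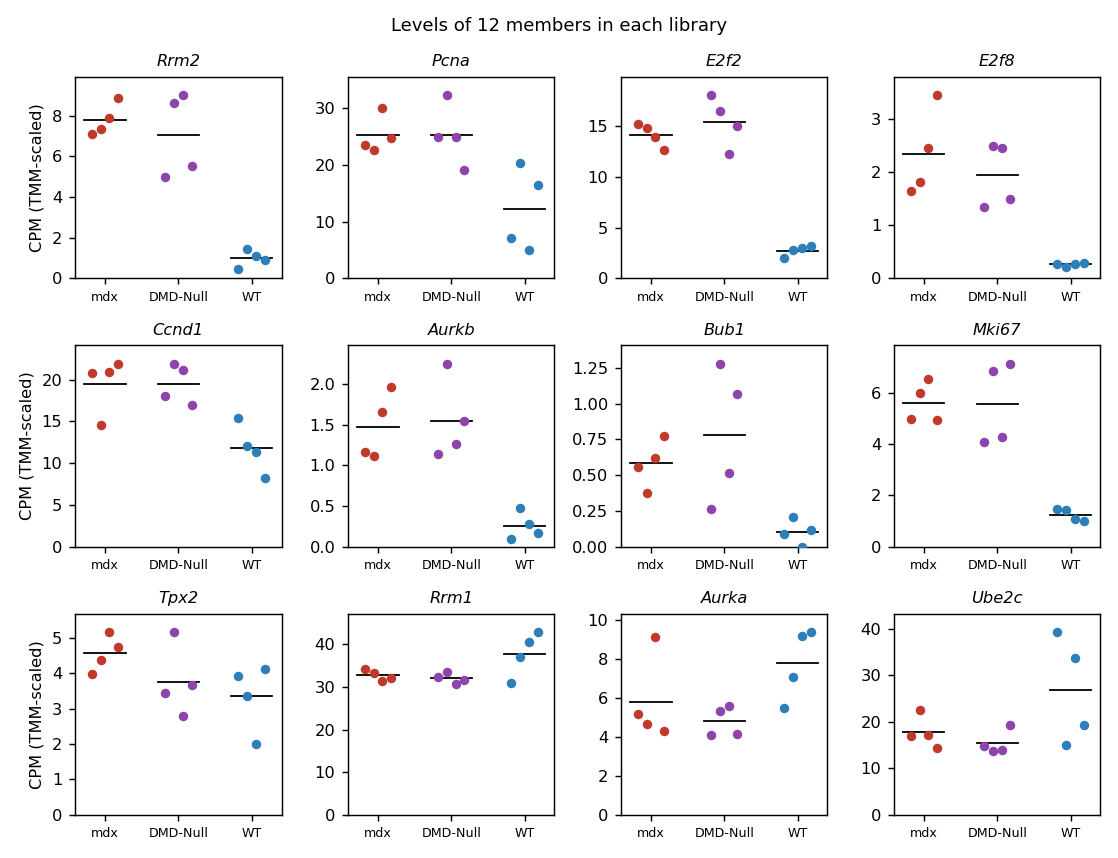
CPM (y axis, linear, from 0) of 12 members in the 4 libraries of mdx, DMD-Null and WT (x axis), each point a library and each line the mean. Rrm2, E2f2, E2f8, Aurkb and Mki67 separate both mutants from WT without overlap, Pcna does so for mdx, and Tpx2, Rrm1, Aurka and Ube2c overlap WT.

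In mitosis, 10 of the 14 kinases, cyclins and checkpoint genes rose in each mutant. Aurkb, the kinase of the chromosomal passenger complex, was at 1.16, 1.12, 1.65 and 1.96 CPM in mdx, at 1.14, 2.25, 1.26 and 1.55 CPM in DMD-Null, and at 0.0883, 0.478, 0.278 and 0.170 CPM in WT (ENSMUSG00000020897, chromosome 11 from 69045647 to 69051664). No library of either mutant reached down to the WT range. It rose by 2.51 ± 0.44 in mdx (adjusted p = 0.00194) and by 2.59 ± 0.44 in DMD-Null (adjusted p = 0.0018). Birc5, the survivin subunit of the same complex, rose by 2.32 ± 0.39 and 2.12 ± 0.39.

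Bub1, a spindle checkpoint kinase and the member with the fewest counts, was at 0.558, 0.373, 0.619 and 0.776 CPM in mdx, at 0.264, 1.28, 0.514 and 1.07 CPM in DMD-Null, and at 0.0883, 0.205, 0 and 0.119 CPM in WT (ENSMUSG00000027379, chromosome 2 from 127801122 to 127831865). WT 3 had 0 counts, which at 3 counts allows up to 0.0694 CPM, and DMD-Null spanned a wide range above WT. The log2 fold change was 2.42 ± 0.68 in mdx (adjusted p = 0.0219) and 2.85 ± 0.69 in DMD-Null (adjusted p = 0.0122), and without WT 1 and WT 3 the mdx value was 1.80 and not called (adjusted p = 0.0843). Its relative Bub1b rose by 1.61 ± 0.31 and 1.33 ± 0.31. Cdk1, the mitotic kinase, rose by 1.90 ± 0.42 in mdx and 2.07 ± 0.42 in DMD-Null, and its cyclins Ccna2 and Ccnb2 rose by 1.94 ± 0.39 and 1.75 ± 0.29 in mdx and by 2.03 ± 0.39 and 1.82 ± 0.29 in DMD-Null. Ccnb1, a further cyclin of Cdk1, had 0 counts in WT 3 against 0.353 to 0.715 CPM in the other WT libraries, and its values of 1.81 ± 0.64 and 1.64 ± 0.64 were not called (adjusted p = 0.0517 and 0.0804). Foxm1, the factor that drives mitotic genes, Plk1, the polo kinase, and Cdc20, which activates the anaphase-promoting complex, rose by 1.66 ± 0.28, 1.49 ± 0.35 and 1.73 ± 0.37 in mdx and by 1.79 ± 0.28, 1.34 ± 0.35 and 1.85 ± 0.37 in DMD-Null.

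A pair of mitosis members lay on the other side of 0. Ube2c, the ubiquitin-conjugating enzyme of the anaphase-promoting complex, had the highest level per length in the class (mean 6.62 FPKM) and was at 17, 22.5, 17.2 and 14.4 CPM in mdx, at 14.8, 13.7, 13.9 and 19.3 CPM in DMD-Null, and at 39.3, 14.9, 33.6 and 19.4 CPM in WT (ENSMUSG00000001403, chromosome 2 from 164769898 to 164778822). WT 1 and WT 3 were high, and WT 2 and WT 4 lay within the mutant range. The log2 fold change was -0.59 ± 0.28 in mdx (adjusted p = 0.121) and -0.80 ± 0.28 in DMD-Null (adjusted p = 0.056), and without WT 1 and WT 3 it was 0.02 and -0.18. The span of Ube2c overlaps by 1662 bases that of Tnnc2, the fast troponin C gene on the opposite strand, which averaged 364281.8 counts against 1221 for Ube2c and fell in both mutants (-0.80, adjusted p = 0.0232, and -0.91, adjusted p = 0.0146). No source used here says if reads were counted by strand, so reads of both genes cannot be told apart here. Aurka, the centrosomal Aurora kinase, was at 4.28 to 9.12 CPM in mdx, 4.09 to 5.61 in DMD-Null and 5.47 to 9.39 in WT, with uncalled values of -0.42 ± 0.26 (adjusted p = 0.226) and -0.70 ± 0.26 (adjusted p = 0.0716). Under DESeq2 both Aurka and Ube2c were called lower in DMD-Null (adjusted p = 0.0324 and 0.0212).

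Among the 11 genes of the spindle, chromosomes and cytokinesis, 9 rose in each mutant. Mki67, the source of the Ki-67 antigen that coats mitotic chromosomes, was at 5.0, 6.01, 6.57 and 4.94 CPM in mdx, at 4.08, 6.88, 4.27 and 7.16 CPM in DMD-Null, and at 1.46, 1.44, 1.06 and 0.987 CPM in WT (ENSMUSG00000031004, chromosome 7 from 135689784 to 135716361). Both mutants lay well above WT, by 2.19 ± 0.24 in mdx (adjusted p = 0.000115) and 2.18 ± 0.24 in DMD-Null (adjusted p = 0.00013), and both values were the same without WT 1 and WT 3. Nusap1, a protein that bundles spindle microtubules, was at 2.0, 1.16, 1.95 and 1.55 CPM in mdx, at 1.48, 2.67, 2.03 and 1.69 CPM in DMD-Null, and at 0.441, 0.564, 0.370 and 0.783 CPM in WT (ENSMUSG00000027306, chromosome 2 from 119618298 to 119650160). It rose by 1.61 ± 0.30 (adjusted p = 0.00293) and 1.85 ± 0.30 (adjusted p = 0.00143), with no overlap. Racgap1 and Kif23, which form the central spindle complex, rose by 1.98 ± 0.29 and 1.81 ± 0.40 in mdx and by 1.69 ± 0.29 and 1.75 ± 0.40 in DMD-Null. Top2a, the topoisomerase that untangles chromosomes, rose by 1.78 ± 0.33 and 1.79 ± 0.33.

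Cenpe, a kinetochore motor, was at 0.953, 1.35, 1.39 and 1.16 CPM in mdx, at 0.983, 0.904, 0.987 and 0.844 CPM in DMD-Null, and at 0.110, 0.547, 0.509 and 0 CPM in WT (ENSMUSG00000045328, chromosome 3 from 135212537 to 135273611). WT 4 had 0 counts, which allows up to 0.051 CPM, and no mutant library overlapped WT. Its value was called in mdx (2.06 ± 0.68, adjusted p = 0.0411) and not in DMD-Null (1.67 ± 0.68, adjusted p = 0.0912), with intervals wide enough to hold both. Kif20a, a motor of the central spindle, was called in DMD-Null (0.83 ± 0.26, adjusted p = 0.038) and not in mdx (0.69 ± 0.26, adjusted p = 0.0621). Tpx2, which activates Aurora A on the spindle and had the highest level per length of this group (mean 0.769 FPKM), was at 3.99, 4.38, 5.17 and 4.74 CPM in mdx, at 3.43, 5.17, 2.78 and 3.67 CPM in DMD-Null, and at 3.91, 3.35, 2.01 and 4.13 CPM in WT (ENSMUSG00000027469, chromosome 2 from 152847964 to 152895321). The 3 genotypes overlapped, and its values were 0.45 ± 0.25 (adjusted p = 0.18) and 0.17 ± 0.25 (adjusted p = 0.628).

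In all, 31 members rose in both mutants, 3 were called in mdx alone (Pcna, Ccne1 and Cenpe), 1 in DMD-Null alone (Kif20a) and 10 in neither. The members called in neither were Mcm2, Mcm7, Rrm1, Ccne2, E2f7, Ccnb1, Cks2, Aurka, Ube2c and Tpx2. Of the 12 members with the highest mean FPKM, 5 were called in neither mutant, against 5 of the other 33. The limit of 12 was arbitrary, and the mean FPKM includes the WT libraries, so this split is not independent of the calls. Of the 15 mitosis members with a CHR match in the promoter, 13 rose in each mutant, and of the 5 without a match 3 rose in mdx and 2 in DMD-Null. Median log2 fold changes of these classes lay close together, at 1.75 with a match and 1.81 without in mdx, and at 1.75 and 1.67 in DMD-Null. Of the 8 S phase members with an E2F match, 6 rose in each mutant, and of the 9 without, 7 rose in mdx and 5 in DMD-Null.

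DMD-Null and mdx were compared with each other directly, which also tests whether their shifts from WT differ. No member was called (edgeR quasi-likelihood test), none had an unadjusted p below 0.05, and DESeq2 called none. The background was 0.0165% of all genes (3, all lower in DMD-Null and all among the lung genes given below). No member was called either without WT 1 and WT 3 or with the GC correction, where in each case 0.033% of all genes were called (0.0055% higher, 0.0275% lower). Without overlap between the genotypes, 1.21% of all genes were higher and 1.06% lower in DMD-Null, and no member was. Log2 fold changes ran from -0.44 for Tyms to 0.43 for Bub1, with a median of -0.02 in S phase and -0.01 in mitosis. For 39 of the 45 members the 95% interval lay within 2-fold either way. The intervals of Ccne2, Ccnb1, Cks2, Cdk1, Bub1 and Cenpe reached beyond it, so a difference of that size was not excluded for these 6. The narrowest interval was that of Rrm1, from -0.30 to 0.25, and those of Mki67 and Rrm2 were -0.50 to 0.49 and -0.77 to 0.47. The differences of the 4 members called in 1 mutant alone were 0.01 (Pcna), -0.09 (Ccne1), -0.38 (Cenpe) and 0.14 (Kif20a), none of them called.

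The mean log2 CPM over the members gives each library a single level, described here without a test. Over the 20 S phase members it was 2.30, 2.18, 2.37 and 2.32 in mdx 1 to 4, 1.97, 2.51, 2.36 and 2.17 in DMD-Null 1 to 4, and 0.94, 1.23, 0.83 and 1.0 in WT 1 to 4. Over the 25 mitosis members it was 1.21, 1.08, 1.41 and 1.40 in mdx, 0.66, 1.70, 1.12 and 1.28 in DMD-Null, and -0.34, 0.10, -0.65 and -0.48 in WT. On this scale every mutant library was above every WT library in both classes, and DMD-Null spread more widely than mdx in each. Summed CPM, in which abundant members weigh most, were 160 to 178 in mdx, 154 to 197 in DMD-Null and 96.7 to 118 in WT for S phase, again without overlap. For mitosis they were 77.7 to 88 in mdx, 55.3 to 98 in DMD-Null and 46 to 64.7 in WT, and DMD-Null 1 at 55.3 lay below WT 1 at 64.7 and WT 3 at 58.1. Ube2c alone made up 39.3 CPM of the sum in WT 1 and 33.6 in WT 3.

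**Figure D4:**
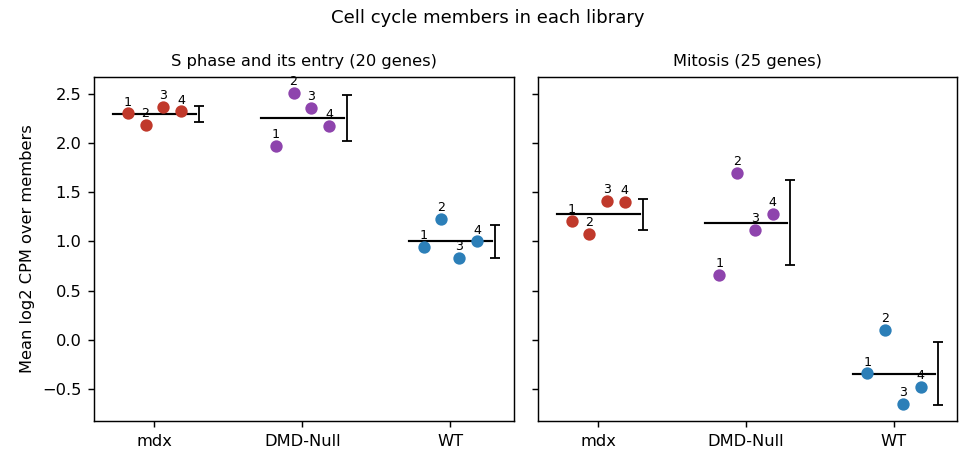
Mean log2 CPM (y axis) over the 20 S phase members (left) and the 25 mitosis members (right) in each library, numbered by replicate, for mdx, DMD-Null and WT (x axis). Lines are means and bars 1 SD: 2.29 ± 0.08, 2.25 ± 0.23 and 1.0 ± 0.17 for S phase, and 1.27 ± 0.16, 1.19 ± 0.43 and -0.34 ± 0.32 for mitosis.

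Within DMD-Null the same libraries were highest or lowest for many members. DMD-Null 2 was the highest of its genotype for 20 of 25 mitosis and 12 of 20 S phase members, and DMD-Null 1 was the lowest for 21 of 25 and 11 of 20. The median coefficient of variation over mitosis members was 19.1% in mdx, 34.8% in DMD-Null and 43.0% in WT, and over S phase members 13.0%, 23.7% and 28.8%. For neither measure was the value over all genes computed, so the pattern is not shown to be particular to the module. DMD-Null 1 also had the lowest summed macrophage markers of its genotype, at 450 CPM against 677 to 912 CPM in DMD-Null 2 to 4, and the lowest fibro-adipogenic progenitor markers, at 2100 against 2470 to 2730 CPM. It was lowest for the sums of regenerating fibre (241 CPM) and granulocyte markers (0.659 CPM) too. The former sum includes Myh8, which went the other way from the rest of its list against WT, so it does not stand for that list. Of the 7 granulocyte markers 5 were at 0 in at least 1 DMD-Null library. DMD-Null 1 had the lowest sum neither for every list nor by a tested margin. It was not lowest for satellite cell markers (357 against 354 to 456 CPM) or lymphocyte markers (5.96 against 5.32 to 7.67 CPM). Macrophage markers were highest in DMD-Null 3 (912 CPM) and not in DMD-Null 2 (810 CPM). The part of these cell types in the spread of the cell cycle genes was not tested.

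**Figure D5:**
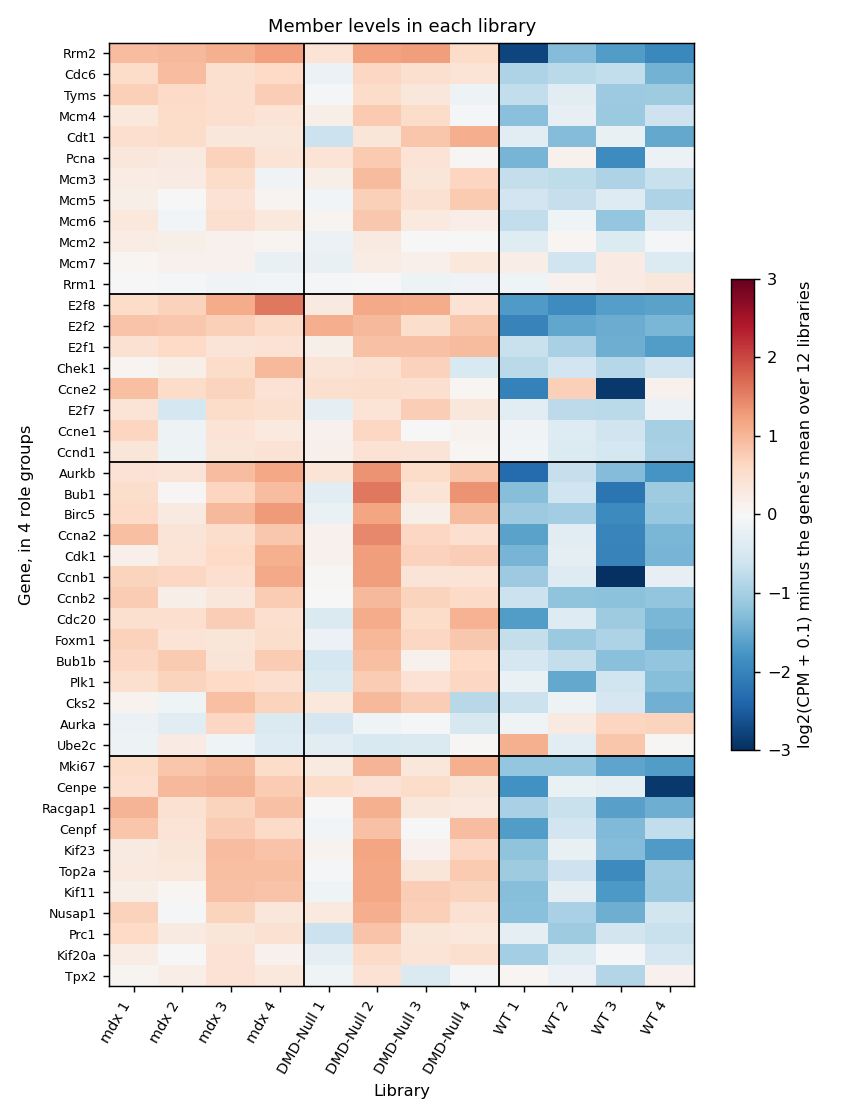
Level of each of the 45 members (rows, in 4 role groups) in each library (columns, in the order mdx, DMD-Null, WT), as log2(CPM + 0.1) minus the mean of the gene over the 12 libraries. Most rows are red in both mutants and blue in WT, DMD-Null 2 is the reddest column of its genotype for mitosis members, and Rrm1, Mcm7, Aurka and Ube2c do not share the pattern.

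Further genes of the same processes were looked at from lists that hold no member. Of 52 other mitosis genes 26 rose and none fell in mdx, and 24 rose and none fell in DMD-Null, with median log2 fold changes of 1.42 and 1.46. Cep55, which acts in the final cut between daughter cells, had the largest called rise (3.0 ± 0.51 in mdx and 2.75 ± 0.51 in DMD-Null), followed by the kinase Melk in mdx (2.83 ± 0.62) and the condensin subunit Ncapg in DMD-Null (2.65 ± 0.63). Of 36 other replication genes 7 rose and 2 fell in mdx, and 7 rose and 1 fell in DMD-Null, with medians of 0.32 and 0.42. Of all genes tested 13.3% were called higher in mdx and 11.5% in DMD-Null. The counts of 7 of 36 lie only somewhat above these shares, by a few genes, whereas those of the other mitosis genes lie far above them. The largest rises among the called genes were those of Uhrf1, which keeps DNA methylation through replication (1.93 ± 0.33 and 2.12 ± 0.33), and of Clspn, a checkpoint mediator (1.89 ± 0.49 and 1.74 ± 0.49), while Pold2, a subunit of polymerase delta, fell in both (-1.08 ± 0.24 and -1.06 ± 0.24) and Tk1, thymidine kinase, fell in mdx (-1.01 ± 0.33). Without WT 1 and WT 3 the other mitosis genes gave 19 rises in mdx and 17 in DMD-Null with no fall, and the other replication genes 5 and 6 rises with 2 falls each. Clspn was then called in neither mutant (adjusted p = 0.0787 and 0.112), and the mdx value of Tk1 was -0.19 and that of Pold2 -0.53.

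Some inhibitors of the cycle and genes of quiescence were higher too. Of 12 such genes 6 rose and 1 fell in mdx (E2f4, a repressive E2F, -0.46 ± 0.14), and 5 rose and none fell in DMD-Null. Cdkn2a, which encodes the INK4A and ARF inhibitors, rose by 4.89 ± 0.29 in mdx and by 4.66 ± 0.29 in DMD-Null, more than any module member. Cdkn1a, which encodes the inhibitor p21, rose by 1.62 ± 0.17 and 1.55 ± 0.17. Without WT 1 and WT 3, 4 of the 12 rose in mdx and 3 in DMD-Null, Cdkn2a and Cdkn1a among them, and no gene of these lists was called between DMD-Null and mdx.

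Some markers of cell types that can divide in muscle were called against WT as well. Of all genes tested 13.3% were called higher in mdx and 11.5% in DMD-Null. Of 12 macrophage markers 12 rose in mdx and 11 in DMD-Null, and their summed level was 745 to 972 CPM in mdx, 450 to 912 in DMD-Null and 107 to 205 in WT. Of 8 markers of fibro-adipogenic progenitors, the stromal cells of muscle, 6 rose and 1 fell in mdx and 5 rose in DMD-Null, with sums of 2240 to 2890, 2100 to 2730 and 404 to 895 CPM. Satellite cell markers, 4 of 8 higher in each mutant and 1 lower in mdx, summed to 292 to 361 CPM in mdx, 354 to 456 in DMD-Null and 175 to 343 in WT, where Calcr was at 0 in a library. Of 6 markers of regenerating fibres 5 rose and 1 fell in each, the one that fell being Myh8, a myosin of developing fibres. Their summed level was 326 to 476 CPM in mdx, 241 to 432 in DMD-Null and 973, 181, 714 and 362 CPM in WT 1 to 4, so the sums of WT 1 and WT 3 lay above all mutant libraries. These sums include Myh8, so they do not stand for the 5 markers that rose, and the share of each gene is not given. Mymk and Mymx, which fuse myoblasts, were at 0 in at least 1 WT library. Without WT 1 and WT 3 all 12 macrophage markers rose in each mutant, 5 of 8 progenitor markers rose in each, 3 satellite cell markers rose in mdx and 4 in DMD-Null, 5 of 6 regenerating fibre markers rose in each, and none of these 4 lists held a fall.

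Lymphocyte markers were low throughout, at 7.25 to 9.71 CPM in mdx, 5.32 to 7.67 in DMD-Null and 1.69 to 2.57 in WT, with Cd3g and Ms4a1 at 0 in some libraries of every genotype. Of the 7 lymphocyte markers tested 3 rose in mdx and 2 in DMD-Null, and none fell. Granulocyte markers summed to 1.99 to 5.59, 0.659 to 5.19 and 0.795 to 3.16 CPM, with Ly6g, Mpo and Camp at 0 in some libraries of every genotype. Of the 4 granulocyte markers tested 1 rose in mdx and none in DMD-Null. Of all genes tested 14.8% were called lower in mdx and 11.4% in DMD-Null, and lists this short cannot be set apart from that share. Of 8 endothelial markers 2 fell in each mutant, and of 6 smooth muscle and pericyte markers 2 fell in mdx and 3 in DMD-Null. Without WT 1 and WT 3 the endothelial falls were 0 in mdx and 1 in DMD-Null, and the others 2 in each. With all libraries no endothelial, smooth muscle or pericyte marker rose in either mutant, though the pericyte gene Pdgfrb did without WT 1 and WT 3 (0.69 in mdx and 0.72 in DMD-Null). The endothelial sums were 317 to 377, 308 to 371 and 367 to 535 CPM in mdx, DMD-Null and WT. Those of smooth muscle and pericytes were 598 to 674, 559 to 687 and 675 to 842 CPM. Genes typical of other tissues varied too. Liver genes summed to 100 to 185 CPM in mdx, 46.5 to 231 in DMD-Null and 733 to 1070 in WT, red cell genes to 288 to 1260, 167 to 319 and 622 to 1120 CPM, and lung genes to 13.5 to 16.3, 0.318 to 0.799 and 0.444 to 1.97 CPM. The part of any of these cell types or tissues in the levels of the cell cycle genes was not tested.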

How the data were processed

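Per the labels, total RNA with an integrity number above 7 was made into poly(A) libraries with a stranded TruSeq protocol. The submitters' processing notes name HISAT2 2.0, StringTie 1.3.4, cutadapt 1.10 and FastQC 0.10.1. The authors deposited a table with raw counts (whole numbers) for each gene in each library. Beside them the authors deposited FPKM, a level per gene length and library size. The counting tool and its strand setting are not given in the sources used here, so genes that overlap others (Mcm7, Ccnd1, Ccne2, Ccna2, Cdc20, Ube2c, Kif20a and Prc1 among the members) are uncertain. The processing notes name GRCm39, but of 30155 genes also in the GRCm38 annotation 96.01% share a start or end with it, and all 45 members do, so positions are read as GRCm38.

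Genes with a mean count of at least 10 over the 12 libraries were tested (18193, with 12046 removed), because an FPKM filter would have kept 17 of the 45 members. Counts were fitted with edgeR 4.0.16 (quasi-likelihood test, TMM factors, R 4.3.3), all 12 libraries in 1 model by genotype, with Benjamini-Hochberg adjustment over all genes tested and a threshold of 0.05. The SE is the absolute log2 fold change over the square root of F. CPM are TMM-scaled, and mean log2 CPM use a prior count of 2. The fit was tested on simulated data. GC content was known for 99.87% of the genes tested, and the GC correction used loess offsets (span 0.5, degree 1). Floors at 0 counts use 3 counts and cover counting error only. No pair of replicates agreed within sampling noise. Other settings were DESeq2 1.42.0, other filters, factors and subsets of libraries.

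Members and lists were chosen with earlier results of these data known. Values in every library are given, per role, for the pair of members with the largest called change in each mutant and for the member with the highest mean FPKM. Other members are given by examples and counts. Promoter sequences are from RefSeq (GRCm38.p6).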

Additional observations from a re-analysis of the deposited data

Results flagged for a closer look

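In 8 of 135 sets of 4 libraries (45 members in 3 genotypes), 1 library lay far from the other 3 relative to the range of all 4 (Dixon's test at the 95% level). Chance flags about 1 in 20. Ccnd1 in mdx 2 was at 14.5 CPM, against 20.8 to 21.8 CPM in the other mdx libraries, and E2f7 in mdx 2 was at 0.388 CPM, against 0.844 to 0.935 CPM. Cdc20 in mdx 3 was at 2.78 CPM, against 2.31 to 2.34 CPM. In DMD-Null, Ccne1 was at 1.53 CPM in DMD-Null 2, against 0.96 to 1.06 CPM, Ccne2 at 2.82 CPM in DMD-Null 4, against 3.85 to 3.95 CPM, and E2f1 at 2.25 CPM in DMD-Null 1, against 3.69 to 3.9 CPM. In WT, Ccnb2 was at 0.706 CPM in WT 1, against 0.439 to 0.459 CPM, and Birc5 at 0.208 CPM in WT 3, against 0.425 to 0.461 CPM.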

How the results depend on the processing

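No member called as reported changed sign in any setting run, and 23 of 34 calls in mdx and 20 of 32 in DMD-Null held in every setting with a value. Pcna was called in mdx in 6 of 22 settings and Cenpe in 6 of 21. The FPKM filter kept 12 S phase and 5 mitosis members, so the calls were 8 S phase and 2 mitosis members in mdx and 7 and 2 in DMD-Null, since fewer members were tested. It can admit a gene through mutant libraries alone, as with Rrm2 (mean FPKM 2.82 in mdx, 2.57 in DMD-Null and 0.259 in WT). Calls under this filter are therefore no separate check of such members. With only the 8 libraries compared, 3247 genes were called in mdx (5119 as reported), 1899 in DMD-Null (4168 as reported), where 8 S phase members were called in place of 13, and 7 between DMD-Null and mdx (3 as reported). Between DMD-Null and mdx the GC correction gave 6 genes, DESeq2 12, the fit without WT 1 and WT 3 6 and that without DMD-Null 4 as well 5, with no member among them, and without WT 1 and WT 3 the mdx count was 3312. Same-numbered libraries did not pair (12 correlations of -0.308 to 0.172, 1 above 0.1), and a replicate block called 3193, 2559 and 0 genes in mdx, in DMD-Null and between them. Library totals alone shifted the median gene by 0.42 against WT and gave 4434 higher and 896 lower in mdx and 4380 and 784 in DMD-Null, against 2423 and 2696, and 2092 and 2076. Leaving out each replicate gave 2927 to 8680 genes in mdx, 2297 to 7886 in DMD-Null and 1 to 4 between them, S phase calls of 10 to 16 and 9 to 14, and mitosis calls of 17 to 22 and 16 to 23. Gene counts moved over 1.5 times without WT 2 (8680 and 7886), WT 3 (3112 and 2573), mdx 1, 3 or 4 (3046, 3171 and 2927) and DMD-Null 2 or 3 (2353 and 2297). The cause was not tested. Counts in single WT libraries were low for some members (0 to 12 for Bub1, 0 to 32 for Cenpe and 12 to 17 for E2f8), which limits the precision of their WT levels.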
